A study of Mus musculus with 22 samples.

Results

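The cytosolic ribosomal protein genes encode the protein parts of the ribosome that works in the cytoplasm, and they were described here in epithelial cells of mouse lung. They were taken as the genes whose symbol is Rpl or Rps with a number (with or without a final a or x), Rplp0, Rplp1, Rplp2 or Rpsa, with pseudogenes left out. By that rule 75 genes were members of 13750 genes measured late in gestation (E18.5, the embryonic day), and the same 75 were members of 15958 genes measured at 6 months. Of these 75, 42 encode proteins of the large subunit, 3 the stalk proteins of the large subunit and 30 proteins of the small subunit, and 4 lie on the X chromosome. Each value is a log2 expression value that was quantile-normalized within its age, so each library has nearly the same set of values and a gene's value follows its rank.

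By its title the study is about how the pair of NANCI, a long noncoding RNA gene, and its neighbour Nkx2-1, a homeodomain transcription factor gene of lung epithelium, holds Nkx2-1 expression steady. WT libraries came from mice labelled NANCI-+/+, with no altered allele named. NANCI mice were homozygous for NANCI-CreERT2:RFP, an allele whose name holds a Cre recombinase that tamoxifen activates and a red reporter. Nkx mice were heterozygous for Nkx2.1-GFP, whose name holds a green reporter, and Double mice were heterozygous for both alleles. At E18.5 each of the 4 groups had 3 libraries, from EpCAM+ cells pulled down on magnetic beads, and at 6 months there were 3 WT, 3 Nkx and 4 Double libraries from sorted EpCAM+, CD45- and CD31- cells. No strain is given, nor whether replicates are separate animals or pools, so the spread behind each p-value is that among libraries and may be technical only. The whole animals carried the alleles, and no allele was limited to lung by its label.

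A ribosome takes 1 copy of nearly each of these proteins, and the cell adjusts their synthesis together. Much of that control acts on translation: the messenger RNAs begin with a C and a run of C and T bases, the 5′ terminal oligopyrimidine (TOP) motif, through which mTOR signalling and Larp1 set how well they are translated, so RNA levels do not show that step. Transcription of the genes is driven in part by Myc proteins, and several ribosomal proteins that are left unassembled bind Mdm2 and thereby raise p53. Reduced dose of Rps19, Rps26, Rpl35a or several other members causes Diamond-Blackfan anaemia in people.

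The starts of the genes with large group differences are shown because the TOP motif lies there. RefSeq (GRCm38.p6) gave a start window for 55 of the 75 members, and the 6 printed first are those with the largest absolute group difference among those eligible; Rps19 was added because it passed a test. Each line gives 24 bases, 10 before and 14 from the annotated start, 5′ to 3′ on the gene's strand. Capitals mark a run of at least 5 bases of C or T, counted from a C within 5 bases of the start. Bases of C or T before that C were not counted. Where a gene has several annotated starts, the window with the longest run is printed.
Rpl34, chr3:130730324-130730347, minus strand: cttttCCTCTTCCggggacggtgc
Rpl26, chr11:68901556-68901579, plus strand: ggcaacttacagaaccggaagtcg
Rpl39, chrX:37085209-37085232, minus strand: gctccgCCTCTagcgacttcttct
Rpl35a, chr16:33056472-33056495, plus strand: gcttgCCTTCCTCTTTCCgccatc
Rps26, chr10:128626493-128626516, minus strand: gcaagccgccggatCCTCTTTCga
Rps15, chr10:80292421-80292444, plus strand: cagagctcgcgataactgcgcaag
Rps19, chr7:24884582-24884605, plus strand: aatctcgcgagactcgacgcccga
Of the 7 genes printed, 4 hold such a run, and as counted the run of Rpl35a is the longest of the 4, with 13 bases. In Rpl34 the bases printed before the capitals are C or T too, so its whole run is longer and begins further upstream. Among the members with a window, 27 of 55 (49.1%) held a run at an annotated start, against 5718 of all 27025 genes with a window (21.2%). In the whole windows of 300 bases, CTTTCC on the gene's strand was present in 41.8% of members and 16% of all genes. On either strand, CCGGAAG, the core of the site of ETS factors such as Gabpa, was present in 41.8% and 9.9%, GGGCGG, the core of an Sp1 site, in 61.8% and 38.2%, and AAGATGGC, a form of the Yy1 site, in 9.1% and 3.2%. These are matches of letters, and CTTTCC can lie within a run.

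The 75 genes were among the most abundant in each library. Their median rank was the 94.7th to 98.5th percentile of all genes in the E18.5 libraries and the 96.9th to 98.3rd in the 6-month libraries. Per kilobase of transcript, the highest mean log2 levels at E18.5 were those of Rps27 (16.65) and the X-linked Rps4x (16.42), and the lowest was that of Rpl36 (9.39), a large-subunit protein. At 6 months the highest per kilobase were Rpl41 (16.17), which encodes the smallest ribosomal protein, and Rplp1 (15.98), and the lowest was Rpl5 (11.48), which carries 5S ribosomal RNA into the large subunit. Each length was that of a single annotated transcript, 2045 bases for Rpl5, and another transcript could change the order. Without regard to length, Rps4x (16.39), Rpl7 (16.29) and Rpl4 (16.22) had the highest mean log2 values at E18.5 and Rplp0 (15.34), Rpl4 (15.22) and Rpl13a (15.17) at 6 months. The lowest were Rpl36 (8), Rpl27 (10.82) and Rplp1 (11.48) at E18.5, and Rpl31 (11.64), Rpl27 (11.74) and Rpl15 (11.79) at 6 months.

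One E18.5 library stood apart. WT 3 was below both other WT libraries in 74 of the 75 members, against 39.6% of all genes, and was the lowest of all 12 libraries for 41 members. The exception was Rpl39 (14.51, 14.25 and 14.33 in WT 1, 2 and 3). The difference of WT 3 from the mean of WT 1 and WT 2 ran from -2.98 for Rpl36, -2.49 for Rps15 and -2.23 for Rpl8 to -0.31 for Rpl5, -0.28 for Rpl7 and -0.05 for Rpl39. It was larger for members with more G and C in the transcript: Pearson's r was -0.67 and Spearman's rho -0.68 over 75 members, with a median of -1.44 in the 38 members of 51.9% to 60.8% G+C and -0.77 in the 37 members of 41.3% to 51.8%. The relation was of the same kind over 12635 protein-coding genes (r -0.62, rho -0.67), and members with a low mean log2 value were also furthest below (r 0.67, rho 0.68). The part of G+C or of level in the difference was not tested. Depth is unknown, and the count of distinct low values, a stand-in for it, was 210 in WT 3 and 209 and 241 in WT 1 and WT 2.

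**Figure D1:**
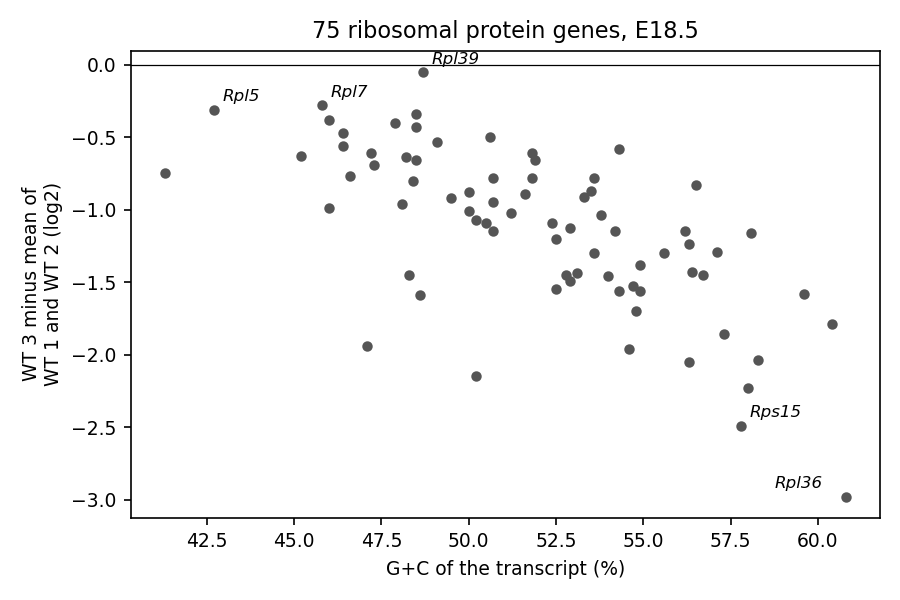
Difference of E18.5 WT 3 from the mean of WT 1 and WT 2 (y axis, log2) against the G+C content of the transcript (x axis, percent) for 75 ribosomal protein genes. Members at the left, such as Rpl5 (-0.31) and Rpl7 (-0.28), lie nearer 0 than those at the right, such as Rpl36 (-2.98).

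At each age the mean of the 75 genes spanned more within the widest group than between the group means. At 6 months the Nkx libraries, at 13.76 to 14, spanned less than the group means. Means of libraries vary less than single libraries, so the spans are not like for like. At E18.5 it was 14.33, 14.31 and 13.2 in WT 1, 2 and 3, 13.67, 13.34 and 13.85 in the NANCI libraries, 13.37, 14.04 and 13.52 in Nkx, and 13.42, 14.28 and 13.83 in Double. All 4 groups overlapped, and WT held both the highest and the lowest of the 12 values. The group means were 13.95 ± 0.65 (SD, n = 3) in WT, 13.62 ± 0.26 (n = 3) in NANCI, 13.64 ± 0.35 (n = 3) in Nkx and 13.84 ± 0.43 (n = 3) in Double, so they spanned 0.33 while the WT libraries alone spanned 1.14. At 6 months the mean of the 75 was 13.69, 13.3 and 13.43 in the WT libraries, 13.78, 14 and 13.76 in Nkx, and 13.75, 13.9, 13.36 and 13.3 in Double. All 3 Nkx libraries lay above all 3 WT libraries, and the Double libraries fell on both sides of WT 1. The 6-month group means were 13.47 ± 0.2 (SD, n = 3), 13.85 ± 0.13 (n = 3) and 13.58 ± 0.29 (n = 4) in WT, Nkx and Double, a span of 0.38 against 0.6 within Double.

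**Figure D2:**
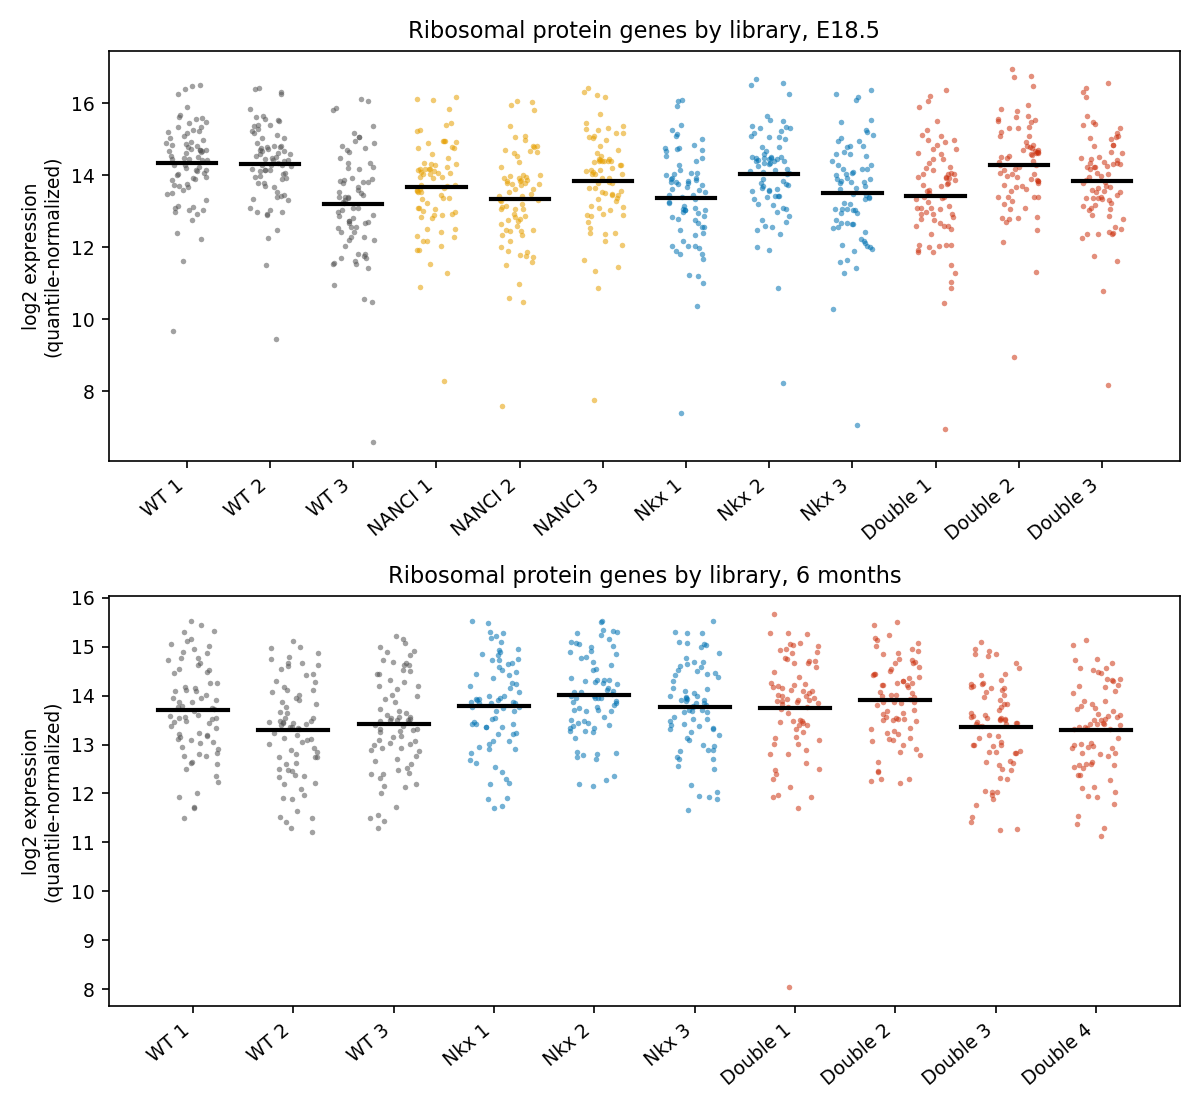
Log2 expression (y axis, quantile-normalized within each age) of the 75 ribosomal protein genes in each library (x axis), coloured by genotype; points are genes and black bars the library means. The whole cloud shifts between libraries of a genotype, from a mean of 14.33 in WT 1 to 13.2 in WT 3 at E18.5.

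The members moved together from library to library. Across the 12 E18.5 libraries the median Pearson correlation of 2 members was 0.914 over 2775 pairs, and 0.94 after group means were removed. Across the 10 6-month libraries it was 0.83, and 0.86 after group means were removed. At E18.5, 61 of the 75 correlated above 0.9 with the mean of the others, and 45 did at 6 months. These correlations describe values that share a library and its normalization. Counts of members in a comparison are thus not counts of independent observations. The median SD within groups was 0.448 for members and 0.281 for all genes at E18.5, and 0.284 and 0.267 at 6 months, so at E18.5 a fold change of a member was measured with a median standard error of 0.31 against 0.22 for all genes.

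At 6 months the Double libraries formed 2 pairs. Double 3 and Double 4 were both below Double 1 and Double 2 in 70 of 75 members, against 21.4% of all genes. The difference between the pairs had no such relation to G+C over the 75 members (r -0.16, rho -0.05), and its median was 0.52 in the members richer in G+C and 0.54 in the others.

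Other features of the libraries were as follows. Nkx2-1 lay between 14.48 and 14.95 in all E18.5 libraries and did not pass the test in any comparison. At 6 months it was 14.17 to 14.55 in WT, 13.77 to 13.96 in Nkx and 13.75 to 14.43 in Double, with a fold change of -0.52 ± 0.17 (SE) in Nkx against WT (limma adjusted p = 0.128) and -0.35 ± 0.16 in Double against WT (limma adjusted p = 0.114). The 8 epithelial markers averaged 12.66 in E18.5 WT 3, the lowest of the 12 libraries, and 12.9 to 13.91 in the others. The E18.5 leukocyte markers (10 measured) averaged 7.86 to 8.17 in WT, 7.23 to 7.52 in NANCI, 4.98 to 5.99 in Nkx and 5 to 5.6 in Double. At 6 months the 10 endothelial markers averaged 11.33 to 12.6 in WT, 10.68 to 11.79 in Nkx and 8.31 to 9.43 in Double, although the gate removes CD31+ cells, and the 10 mesenchymal markers averaged 9.54 to 10.28, 8.88 to 9.49 and 6.64 to 8.21. The 30 cell cycle genes averaged 8.76 to 9.12 in WT, 9.77 to 9.94 in Nkx and 10.13 to 10.41 in Double at E18.5, and 7.19 to 8.33, 7.27 to 7.85 and 8.31 to 9.33 at 6 months. Markers of epithelial cell types differed too. The 15 markers of AT2 cells, which make surfactant, averaged 15.79 to 16.17 in WT, 14.92 to 15.43 in Nkx and 14.31 to 15.05 in Double at E18.5. Of these 15, 4 fell in Nkx and 12 in Double against WT by limma's adjusted test. Among all genes 7.32% and 14.6% were called there in either direction. In 6-month Double against WT 10 of these 15 fell and 1 rose (median -1.28), as 6 of 11 markers of AT1 cells (median -1.26) and all 10 of ciliated cells (median -1.54) fell. Among all genes 36.3% were called in that comparison in either direction. Ptprc (CD45) and the endothelial Pecam1 and Cdh5 were at the lowest value of no library. Read totals are unknown.

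In E18.5 NANCI against WT, no member passed the test, 73 of the 75 log2 fold changes were below 0, and their median was -0.33. The median of all genes was 0.01. None of the 75 passed limma's test with Benjamini-Hochberg adjustment over all genes, as did 0% of all genes, and none had an unadjusted p under 0.05, against 3.1% of all genes. In no member did the 2 groups fail to overlap, against 6.27% of all genes. The pattern of Xist and Y-linked genes was male in NANCI 1, 2 and 3 and WT 1, and female in WT 2 and WT 3. Sex and genotype were thus partly joined in this comparison. In bulk RNA fewer cells of a type and less RNA per cell cannot be told apart. The lowest fold changes were those of Rpl29 (-0.73 ± 0.42), Rplp1 (-0.71 ± 0.46), Rpl36 (-0.69 ± 0.71) and Rps29 (-0.66 ± 0.36, the smallest p of the members). Rps21, Rpl38 and Rpl27, also among those with the smallest p, were at -0.54, -0.52 and -0.46, each with a limma adjusted p of 0.978. Rplp1, a protein of the acidic stalk that recruits translation factors, was at 12.4, 12.47 and 10.57 in the WT libraries and at 11.27, 10.58 and 11.45 in the NANCI libraries. Its NANCI values thus all lay between WT 3 and the other WT libraries.

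Without WT 3 the same comparison had all 75 fold changes below 0, with a median of -0.66 (all genes 0.01). WT 3 was singled out by its low values in these same members. Leaving it out thus lowers their fold changes by construction, here and in the other comparisons with E18.5 WT. Still none passed the adjusted threshold, as did 0.0145% of all genes. The unadjusted p was under 0.05 for 54 members, against 20.5% of all genes. In 69 members all NANCI libraries were below both remaining WT libraries, against 22.2% of all genes.

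In E18.5 Nkx against WT, no member passed either, 72 of 75 fold changes were below 0, and the median was -0.27 (all genes 0.02). Among all genes 7.32% passed. The unadjusted p was under 0.05 for 2 members, Rpl27 and Rpl34, against 21.6% of all genes, and the groups failed to overlap for no member, against 22.2% of all genes. Rpl34, a large-subunit protein, was at 14.14, 13.53 and 12.82 in the WT libraries and at 11, 13.06 and 12.57 in Nkx. Nkx 1 was far below the other Nkx libraries, and the difference of -1.29 ± 0.59 had a 95% interval of -2.56 to -0.02 (limma adjusted p = 0.226). Rpl27, a large-subunit protein, was at 11.62, 11.5 and 10.47 in the WT libraries and at 10.37, 10.85 and 10.28 in Nkx, a difference of -0.70 ± 0.30 (limma adjusted p = 0.191). The next smallest p were those of Rpl26 (-0.88 ± 0.45), Rpl35 (-0.62 ± 0.37) and Rpl36 (-1 ± 0.71).

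Without WT 3, 14 members fell and none rose, against 15.8% of all genes called, and the median over the 75 was -0.61. All 75 fold changes were then below 0, and in 67 members the groups did not overlap, against 22.4% of all genes. The members that fell included Rpl36 (-2 ± 0.49, limma adjusted p = 0.0183), Rps15 (-1.56 ± 0.41, limma adjusted p = 0.0244) and Rps19 (-1.05 ± 0.26, limma adjusted p = 0.0181). Rpl26 fell too (-1.60 ± 0.23, limma adjusted p = 0.00116), but with its pseudogene copies added it was at -0.76 ± 0.27 and did not pass (limma adjusted p = 0.0759). Leaving out any other E18.5 library of this comparison gave 0 members called. WT 3 alone thus decided whether members were called. The leukocyte, AT2 and cell cycle markers given above differed between these groups as well, and their part in the result was not tested.

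In E18.5 Double against WT, 54 of 75 fold changes were below 0, with a median of -0.08 (all genes 0.02). None passed, against 14.6% of all genes, none had an unadjusted p under 0.05, against 27.3%, and in none did the groups fail to overlap, against 27.2%. The most negative was Rpl34 (-0.83 ± 0.59) and the most positive Rpl35a (0.33 ± 0.40), followed by the X-linked Rps4x (0.28 ± 0.20). Without WT 3, 5 members fell (Rpl36, Rps15, Rpl26, Rpl37a and Rps19), against 19.6% of all genes called, and 38 members did not overlap with Double lower, against 23.1%. The median was then -0.44. With pseudogene copies added as well, 4 members fell (share of all genes not given), and Rpl26 was at -0.63 ± 0.27 (limma adjusted p = 0.124).

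In E18.5 Double against Nkx, 72 of 75 fold changes were above 0, with a median of 0.19 (all genes 0). None passed, against 0.00727% of all genes, none had an unadjusted p under 0.05, against 4.07%, and none had groups that did not overlap, against 8.6%. The largest was that of Rpl35, at 0.49 ± 0.37. The next smallest p were those of Rpl10 (0.24 ± 0.19), Rpl14 (0.30 ± 0.25) and Rps4x (0.24 ± 0.20), all with a limma adjusted p of 1. Same-numbered Nkx and Double libraries deviated together, and the mean of the 75 was higher in Double than in Nkx at each number. In a fit of the 2 groups with the number as a block, chosen after the data were seen, again no member passed limma's adjusted threshold (smallest adjusted p 0.251, Rpl35), and 15 had an unadjusted p under 0.05, all higher in Double, against 10.6% of all genes.

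At E18.5 members of particular roles overlapped between WT and each other group. Rps6, the protein that S6 kinase phosphorylates, had 13.54 ± 0.58 (SD, n = 3) in WT, 13.11 ± 0.35 in NANCI, 13.3 ± 0.31 in Nkx and 13.37 ± 0.34 in Double. Rplp0, the base of the stalk and a common reference gene in PCR, had 14.35 ± 0.86, 14.11 ± 0.25, 14.12 ± 0.36 and 14.34 ± 0.42. Its WT values of 14.92, 14.78 and 13.36 spanned all 9 values of the other groups. Rps27a, made as a fusion with ubiquitin, had 15.23 ± 0.25, 15 ± 0.23, 15.13 ± 0.24 and 15.34 ± 0.28. The X-linked Rpl10, which joins the large subunit late in its assembly, had group means of 15.46 to 15.7, Rpl36a of 13.41 to 13.74, and Rps4x of 16.21 to 16.62, and their groups overlapped too. Rpl36 was the most variable by within-group SD (1.058): it was 9.66, 9.44 and 6.57 in the WT libraries, 8.27, 7.59 and 7.76 in the NANCI libraries, 7.4, 8.21 and 7.05 in Nkx and 6.95, 8.95 and 8.17 in Double. At 6 months, in values normalized separately, Rpl36 lay between 12.8 and 13.88.

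At 6 months the mean of Nkx was above that of WT in nearly every member, but no member passed the test. Of the 75 fold changes of Nkx against WT, 73 were above 0, and the median was 0.40, against 0.01 for all genes. Of all genes, 2.63% passed limma's adjusted threshold. In 39 members all Nkx libraries were above all WT libraries, against 16.1% of all genes, and in none were they all below, against 14.4%. The unadjusted p was under 0.05 with Nkx higher in 27 members, against 12% of all genes. Large and small subunits did not part: 41 of 42 Rpl genes and 29 of 30 Rps genes were above 0, each with a median of 0.40, as were the 3 stalk genes at 0.26 to 0.53. The members moved together from library to library, so none of these counts is one of independent observations. When the libraries were centred on the mean of the 75 members, the median of all genes moved by -0.38, and again no member passed.

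Among the members with the smallest p in 6-month Nkx against WT were Rps26, Rps15a, Rpl39 and Rplp1. Rps26 differed by 0.63 ± 0.16 (limma adjusted p = 0.0694), Rps15a by 0.61 ± 0.19 (limma adjusted p = 0.103), Rpl39 by 0.80 ± 0.24 (limma adjusted p = 0.104) and Rplp1 by 0.53 ± 0.16 (limma adjusted p = 0.105). A fit of the 2 groups alone called 4 members, and the share of all genes called in that fit is not given here. The 2 below 0 were Rpl3 (-0.14 ± 0.17) and Rpsa (-0.13 ± 0.46). With their pseudogene copies added these were at -0.02 ± 0.15 for Rpl3 (limma adjusted p = 0.945) and 0.19 ± 0.22 for Rpsa (limma adjusted p = 0.655). The Rpl3 copy Rpl3-ps1 was at 6.76 to 7.26 in WT and at 6.93, 11.18 and 11.21 in Nkx.

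In 6-month Double against WT, 4 members rose and none fell, and Rps26, Rpl35a and Rpl39 were among them. The share called among all genes was 36.3% in either direction and 18.4% higher, and the members' 4 of 75 is to be read against those shares. Without WT 3 or Double 1 the count was 2, and without Double 3 or Double 4 it was 7. The share of all genes called in each of those fits is not given here. Of the 75 fold changes 53 were above 0, with a median of 0.11 (all genes 0.06). With Double higher, 8 members had an unadjusted p under 0.05, against 24.3% of all genes. In 5 members all Double libraries were above all WT libraries, against 21.1% of all genes, and in 2 all were below, against 18.9%. Endothelial, mesenchymal, ciliated, AT2, AT1 and cell cycle markers differed between these groups as given above, and their part in the result was not tested.

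Rps26, a small-subunit protein at the exit of the messenger RNA channel (chr10:128624534-128626747, minus strand, GRCm38), was at 12.76, 12.85 and 13.07 in the WT libraries, at 13.35, 13.76 and 13.47 in Nkx, and at 13.88, 13.81, 13.51 and 13.36 in Double. All 7 Nkx and Double values lay above the 3 WT values. It rose by 0.74 ± 0.15 in Double against WT (95% interval 0.41 to 1.08, limma adjusted p = 0.003) and kept its call in the 16 alternatives run, with limma adjusted p between 0.00184 and 0.0374. Its start, printed above, has a run of 8 bases, and that of Rpl35a the run of 13.

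Rpl35a, a large-subunit protein (chr16:33056453-33060189, plus strand, GRCm38), was at 12.83, 12.36 and 12.39 in the WT libraries, at 12.9, 13.8 and 12.88 in Nkx, and at 13.5, 13.64, 13.06 and 12.97 in Double. WT 1 lay only just under the lowest Nkx and Double values. It rose by 0.76 ± 0.24 in Double against WT (limma adjusted p = 0.0281). Rpl39, an X-linked member that lines the peptide tunnel, was at 12.36, 11.97 and 12.13 in the WT libraries, at 12.83, 13.27 and 12.75 in Nkx, and at 13.15, 13.31, 12.48 and 12.38 in Double. The lowest Double value lay just above the highest WT value, and the rise was 0.68 ± 0.23 (limma adjusted p = 0.0359). Both calls were lost in 6 of 16 alternatives, with limma adjusted p up to 0.142 for Rpl35a and 0.168 for Rpl39 with a sex covariate. The pattern of Xist and Y-linked genes was female in all 4 Double libraries and in 1 of 3 WT libraries, so for these groups sex and genotype were partly joined.

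**Figure D3:**
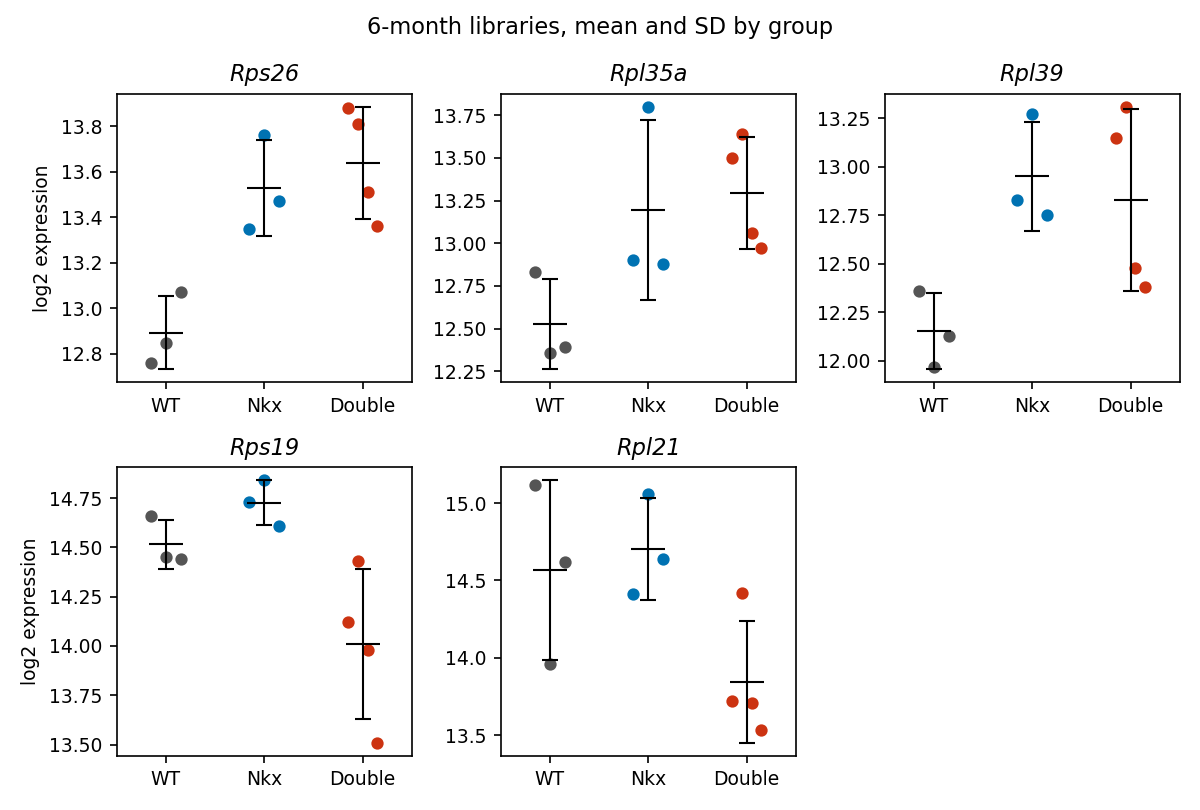
Log2 expression (y axis) at 6 months in WT, Nkx and Double libraries (x axis) of 5 ribosomal protein genes that passed the test in Double against WT or Double against Nkx; points are libraries and bars the mean and SD. Rps26 has all Nkx and Double libraries above WT, while Rps19 and Rpl21 are lowest in Double.

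In 6-month Double against Nkx, 71 of 75 fold changes were below 0, with a median of -0.28 (all genes 0.03). Rps19 and Rpl21 fell and none rose, against 21.7% of all genes called in either direction and 11.5% lower. In 6 members all Double libraries were below all Nkx libraries, against 15.7% of all genes, and in none were they all above, against 16.1%. The count called was 0 without Nkx 1 or Nkx 2, 1 without Nkx 3, Double 1 or Double 4, and 7 without Double 2. For those fits the share of all genes called is not given here. This comparison shares its Nkx and Double libraries with the 2 against WT. Double 1 and Double 2 had means of the 75 close to those of Nkx, at 13.75 and 13.9, and Double 3 and Double 4 were lower, at 13.36 and 13.3.

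Rps19, a small-subunit protein (chr7:24884371-24889806, plus strand, GRCm38), was at 14.66, 14.45 and 14.44 in the WT libraries, at 14.73, 14.84 and 14.61 in Nkx, and at 14.12, 14.43, 13.98 and 13.51 in Double. All Double values were below all others, with Double 2 just under WT 3. It fell by 0.71 ± 0.19 in Double against Nkx (limma adjusted p = 0.0184), and its difference from WT was -0.51 ± 0.19 (limma adjusted p = 0.0528). The call against Nkx was lost in 3 of 16 alternatives, with limma adjusted p up to 0.0924. Leaving out Nkx 1 or Nkx 2 gave limma adjusted p of 0.0608 and 0.0706.

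Rpl21, a large-subunit protein (chr5:146832890-146837032, plus strand, GRCm38), was at 15.12, 13.96 and 14.62 in the WT libraries, at 14.41, 15.06 and 14.64 in Nkx, and at 13.72, 14.42, 13.71 and 13.53 in Double. Double 2 overlapped with Nkx 1, and WT 2 lay among the Double values. It fell by 0.85 ± 0.28 in Double against Nkx (limma adjusted p = 0.0482), a call lost in 12 of 16 alternatives. Rps7 (-0.54 ± 0.19), Rplp1 (-0.40 ± 0.15) and Rpl10 (-0.34 ± 0.14) had the next smallest p in this comparison, with limma adjusted p of 0.0698, 0.0887 and 0.107.

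When each library was centred on the mean of its 75 members, a choice made after the data were seen, a member was compared with the other members of its own library. In 6-month Double against WT, Rps26 (0.64), Rpl35a (0.66) and Rpl39 (0.57) were then higher and Rps19 (-0.61) and Rpl21 (-0.83) lower, with limma adjusted p of 0.02, 0.0213, 0.0194, 0.0207 and 0.0157, against 22.2% of all genes called. In the other 6 comparisons no member passed on this scale. Centring moved the median of all genes by 0.33, 0.31, 0.1 and -0.2 in the 4 E18.5 comparisons in the order given, and by -0.38, -0.1 and 0.27 at 6 months.

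**Figure D4:**
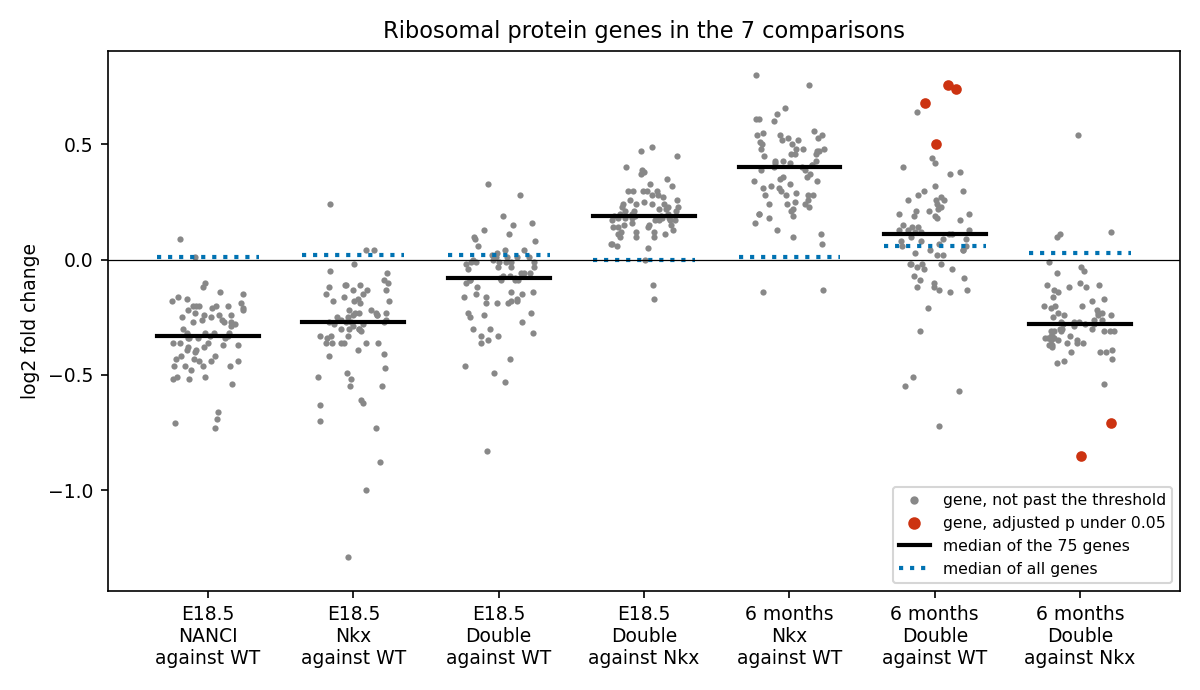
Log2 fold changes (y axis) of the 75 ribosomal protein genes in the 7 comparisons (x axis); grey points did not pass and red points had a limma adjusted p under 0.05, black bars are the members' medians and dotted blue bars the medians of all genes. The members' median lies between -0.33 and 0.40, and it is nearest that of all genes in 6-month Double against WT (0.11 against 0.06). There are 4 red points in 6-month Double against WT and 2 in Double against Nkx.

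Of the 6 members that correlated under 0.5 with the mean of the others at 6 months (Rpsa, Rps2, Rps18, Rpl3, Rpl34 and Rpl29), 5 were above 0.5 once the values of their pseudogene copies were added. Ribosomal protein genes have many processed pseudogenes, which are copies of the messenger RNA put back into the genome, and reads from a member can be assigned to a near-identical copy. Measured pseudogenes were matched to the members' transcripts (at least 85% identity over at least 50% of the shorter sequence): 179 rows at E18.5 were matched, to 66 members, and 66 rows at 6 months, to 51 members. This search and the examples were chosen after the values were seen.

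Rpsa, the laminin receptor precursor and a small-subunit protein, was at 14.62, 14.12 and 14.45 in the WT libraries, 14.75, 13.47 and 14.58 in Nkx and 14.89, 13.22, 14.24 and 13.01 in Double at 6 months. It was low in Nkx 2, Double 2 and Double 4. Its copy Rpsa-ps10, 99.3% identical, was at 13.29, 13.14 and 12.83 in those 3 libraries and at 5.15 to 7.4 in the other 7. With the copies added on the linear scale Rpsa was at 14.41, 14.19 and 13.95 there, and its range over the 10 libraries went from 1.88 to 0.94.

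Rps2, at the entry of the messenger RNA channel, went the other way round. It was at 14.07 in WT 2, 15.01 in Double 1, 14.59 in Double 2 and 14.33 in Double 4, and at 13.38 to 13.99 in the other 6 libraries. Its copy Rps2-ps13, 99.2% identical, was at 6.45, 5.86, 3.35 and 7.35 in those 4 and at 12.32 to 13.09 in the other 6. Rps18 overlapped between libraries with a high and a low copy. The copy Rps18-ps3 was at 5.57 in WT 2, 4.63 in Double 1 and 6.37 in Double 4, where Rps18 was at 13.47, 14.06 and 13.69, and at 11.36 to 12.26 in the other 7 libraries, where Rps18 was at 12.84 to 13.56. With the copies added, the correlation of each with the mean of the other members went from 0.23 to 0.643 for Rps2, from 0.289 to 0.811 for Rps18 and from 0.003 to 0.503 for Rpsa.

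Rpl26, a large-subunit protein that also binds p53 messenger RNA, had such a copy at both ages. At E18.5 the copy Gm15772 (99.5% identical) was at 9.03, 9.06 and 12.51 in the WT libraries, 8.52, 8.11 and 8.9 in the NANCI libraries, 12.75, 13.47 and 12.68 in Nkx, and 7.95, 13.64 and 13.11 in Double. Rpl26 was at 14.84, 14.89 and 12.72 in the WT libraries, 14.3, 13.96 and 14.44 in the NANCI libraries, 13.03, 13.76 and 13.02 in Nkx, and 13.75, 13.85 and 13.36 in Double. All Nkx libraries had the high copy, as had WT 3, Double 2 and Double 3. With copies added, Rpl26 in Nkx against WT went from -0.88 to -0.34 (limma adjusted p = 0.615), its range from 2.18 to 1.28 and its correlation with the others from 0.695 to 0.973. At 6 months the copy was at 13.14 in Nkx 2 and 12.24 in Double 4 and at 5.48 to 7.62 elsewhere, and the correlation went from 0.653 to 0.976.

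**Figure D5:**
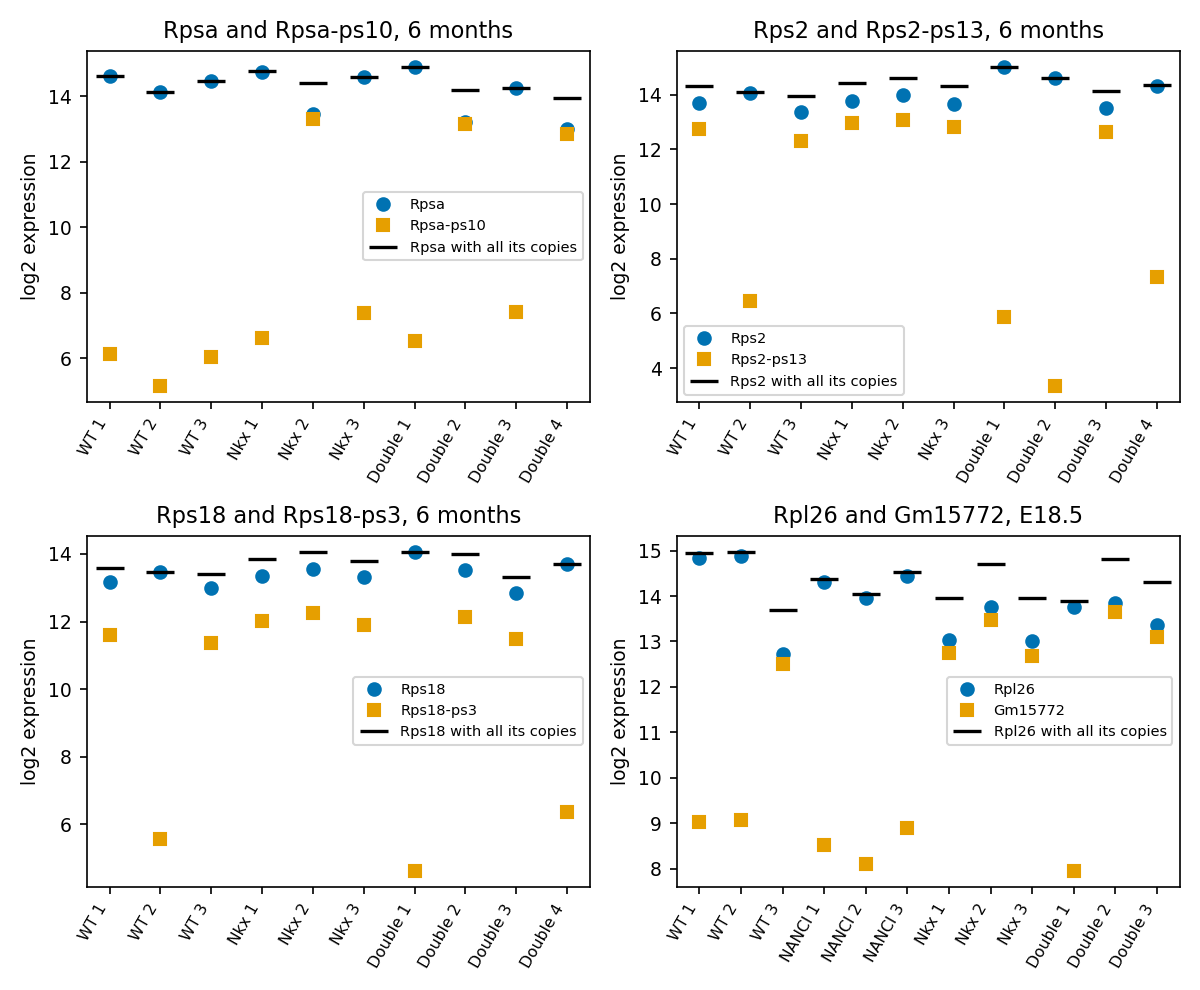
Log2 expression (y axis) by library (x axis) of 4 ribosomal protein genes (blue), a near-identical pseudogene of each (orange) and the gene with all its copies added on the linear scale (black bars). Rpsa is low in Nkx 2, Double 2 and Double 4, where its pseudogene is high, and the sum varies less than the gene alone in all 4 panels.

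Rpl34 showed this in part. At E18.5 Rpl34-ps1 (99.4% identical) was at 10.89 in WT 2, at 10.5, 10.32 and 9.75 in Nkx, at 10.5 and 10.22 in Double 1 and Double 2, and at 5.73 to 7.63 in the other 6 libraries. Adding the copies took Rpl34 in Nkx against WT from -1.29 to -0.97 (limma adjusted p = 0.234). Copies reached more than 10% of the sum in at least 1 library for 15 members at E18.5 and 10 at 6 months, and stayed under 1% in each library for 17 and 37.

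For the 5 genes named above that passed a test the copies changed little. With copies added Rps26 was at 0.70 (limma adjusted p = 0.00314), Rpl35a at 0.76 (limma adjusted p = 0.0281) and Rpl39 at 0.68 (limma adjusted p = 0.0343) in Double against WT. In Double against Nkx, Rps19 was at -0.71 (limma adjusted p = 0.0184) and Rpl21 at -0.85 (limma adjusted p = 0.0481). Counts of members called were the same as without the copies in all 7 comparisons.

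Rpl29, a large-subunit protein also known as a heparin-binding protein, was at 11.93, 11.65 and 12.7 in the WT libraries, 12.2, 13.27 and 13.1 in Nkx and 8.04, 12.29, 12.98 and 12.8 in Double at 6 months. Double 1 was far below the other 9 libraries. It had the widest range of the members (5.23) and a correlation of -0.157 with the others. Its difference of -1.33 ± 0.95 in Double against Nkx did not pass (limma adjusted p = 0.353). With its 3 copies added Double 1 was at 9.08.

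The Rps24 copy Rps24-ps3 is an example of a pseudogene that passed the tests. It was at 11.19, 10.56 and 10.53 in the WT libraries, 11.25, 8.26 and 11.21 in Nkx and 7.16, 6.82, 6.66 and 6.47 in Double at 6 months. It fell by 3.98 ± 0.58 in Double against WT (limma adjusted p = 0.000357) and by 3.46 ± 0.58 in Double against Nkx (limma adjusted p = 0.00193). It is 99% identical to Rps24, with which its reads can be exchanged. Of the 30 rows at 6 months whose symbol marks them as ribosomal pseudogenes, 1 rose and 1 fell in Double against WT (6.67%, against 36.3% of all genes). The one that rose was Rps16-ps2 (0.94 ± 0.29, limma adjusted p = 0.027), a call lost in 4 of 16 alternatives. None of the 72 at E18.5 passed in any comparison.

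Other ribosomal protein genes, outside the naming rule, were 12 at each age. Rps27l, a paralog of Rps27 that p53 induces, was at 11.29, 11.14 and 11.07 in the WT libraries, 11.69, 12.17 and 11.93 in Nkx, and 12.41, 12.41, 11.97 and 11.73 in Double at 6 months. All Nkx and Double libraries were above WT, and it rose by 0.96 ± 0.18 in Double against WT (limma adjusted p = 0.00147), with 0.77 ± 0.19 in Nkx against WT (limma adjusted p = 0.0572). Rpl36al, a paralog of Rpl36a, rose in Double and in Nkx against WT, by 0.48 ± 0.12 (limma adjusted p = 0.011) and 0.58 ± 0.13 (limma adjusted p = 0.0465), the second a call lost in 11 of 15 alternatives with adjusted p up to 0.483, while Rpl36a itself was at 0.07 ± 0.23 and 0.47 ± 0.25 and did not pass. Rpl22l1 (0.07 ± 0.28) and Rpl7l1 (0.03 ± 0.11) did not pass in Double against WT, and at E18.5 none of the 12 passed in any comparison.

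Of 71 ribosome biogenesis factors, 8 rose in Nkx (11.3%, against 7.32% of all genes) and 14 in Double (19.7%, against 14.6%) against WT at E18.5, and none fell. Among these were Pwp1 (0.76 ± 0.13 and 1.09 ± 0.13) and Tsr1 (0.74 ± 0.14 and 0.68 ± 0.14), both factors of ribosome assembly. The mean of the 71 was 9.89 to 10 in E18.5 WT, 10.08 to 10.35 in Nkx and 10.11 to 10.45 in Double, so neither mutant group overlapped with WT, whereas the members' means did. At 6 months 30 rose and 4 fell in Double against WT (47.9%, against 36.3% of all genes), among them Rpf2 (1.13 ± 0.18) and Nhp2 (0.92 ± 0.18) up and Heatr1, for ribosomal RNA transcription, down by 1.49 ± 0.16. In 6-month Nkx against WT 1 rose, Ltv1 (0.48 ± 0.11), a call lost in 12 of 15 alternatives, and Heatr1 fell by 1.5 ± 0.17, a call kept in all 15, and in Double against Nkx 11 rose and 1 fell (16.9%, against 21.7% of all genes). Polr1a, the largest subunit of RNA polymerase I, rose in E18.5 Nkx (0.60 ± 0.13) and Double (0.58 ± 0.13) and in 6-month Double against WT (0.43 ± 0.15) and against Nkx (0.80 ± 0.15). It alone passed of 15 genes of RNA polymerase I and its factors in both E18.5 comparisons. That share of 6.67% compares with 7.32% and 14.6% of all genes, and the medians of the 15 were 0.05 and 0.14. In 6-month Double against WT 5 of the 15 rose and 1 fell (40%, against 36.3% of all genes). In 6-month Double against Nkx 1 of the 15 rose (6.67%, against 21.7% of all genes).

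None of 76 mitochondrial ribosomal protein genes passed limma's test at E18.5, and 34 rose and 1 fell in 6-month Double against WT (46.1%, against 36.3% of all genes), with a median of 0.45. Mrpl11 (1.15 ± 0.17) and Mrps22 (1.11 ± 0.19) had the largest rises and Mrps9 fell by 0.87 ± 0.15. The cytosolic members' median was 0.11 there, and in Nkx against WT the medians were 0.34 for the mitochondrial and 0.40 for the cytosolic genes; the difference was not tested. Of 25 other genes with TOP messenger RNAs 5 rose and 1 fell in Double against WT (24%, against 36.3% of all genes), among them Nap1l1 (0.74 ± 0.11) and Npm1 (0.58 ± 0.12) up and the elongation factor Eef2 down by 0.84 ± 0.22. Of 31 translation initiation factors 11 rose and 3 fell in that comparison (45.2%).

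Among the regulators, Mycn rose in 6-month Double. It was at 3.93, 5.89 and 5.56 in the WT libraries, 4.73, 5.35 and 4.73 in Nkx and 8.29, 7.52, 7.16 and 8.88 in Double, a rise of 2.83 ± 0.54 against WT (limma adjusted p = 0.00193) and 3.02 ± 0.54 against Nkx (limma adjusted p = 0.00263). The WT and Nkx values were low in libraries with medians of 9.58 to 9.59, so the size of the rise rests on a low baseline. Myc rose by 1.28 ± 0.36 against WT (limma adjusted p = 0.0172), from 7.89 to 8.67 in WT to 8.58 to 10.47 in Double. This call of Myc was lost in 3 of 16 alternatives. Mtor differed by 0.02 ± 0.11 from WT and rose by 0.34 ± 0.11 against Nkx (limma adjusted p = 0.0458), a call lost in 11 of 16 alternatives. Double 3 and Double 4, which had the lower ribosomal protein means of the 4, had Mycn at 7.16 and 8.88 and Myc at 9.47 and 10.47. At E18.5 neither Myc nor Mycn passed, with Myc at 0.75 ± 0.35 in Nkx and 0.66 ± 0.35 in Double against WT. Of the 34 regulators 11 rose and 2 fell in 6-month Double against WT, a share of 38.2% that is near the 36.3% of all genes, and Mxd1, a Myc antagonist, rose by 0.99 ± 0.14. Trp53 (0.63 ± 0.16) and Eif4ebp1 (0.83 ± 0.17), which holds back cap-dependent translation, were among the others that rose, and Tsc2 (-0.43 ± 0.12), a brake on mTOR, and Mxd4 (-0.34 ± 0.10) were those that fell.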

How the data were processed

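The members and lists were chosen with earlier results of these data known. RNA of 22 libraries was sequenced, and the submitters' processing notes name the aligner STAR, limma and mm9. Kit, strand and counting were not given in the sources used here. Deposited values are log2 expression values without length scaling, and their shared distribution within an age was read from the values. Read depth is unknown, so no counting interval can be given. Symbols and coordinates came from an annotation of GRCm38. 1 further symbol of the naming rule was not analysed here. A member that passed is counted but its values are not reported here. From these values limma 3.58.1 (R 4.3.3), with empirical Bayes moderation and a mean-variance trend, was fitted once per age on all genes and libraries, with Benjamini-Hochberg adjustment and a threshold of 0.05, after checks on simulated data. Copies were matched with BLAST 2.17.0. Named in each comparison were members that passed, the 5 with the smallest p where under 5 passed, extremes of level and spread, and 10 fixed members; the pseudogenes, Rpl3, Rps2, Rps18 and Rpl8 were named after their values were seen. Same-numbered libraries deviated together (correlation of deviations from group means over 0.1 in all 3 pairs, 0.18 to 0.504) in E18.5 Nkx and Double, by the values and not the labels, and not in every pair of the other 6 comparisons. Alternatives were other fits, covariates and centrings, and leaving out each library.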

Additional observations from a re-analysis of the deposited data

Results flagged for a closer look

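In 6-month Double, Rpl29 was at 8.04 in Double 1 while the other 3 libraries lay between 12.29 and 12.98, a gap of 0.861 of the whole range. Rpl3, a large-subunit protein, was at 13.73 in Double 4 against 14.15 to 14.22 in the others, a gap of 0.852 of the range. Both gaps are past Dixon's critical value for 4 samples at 95%, which chance passes in about 1 in 20 groups. With 75 members examined, 2 such gaps are fewer than that rate gives. With its pseudogene copy added, Rpl3 was at 14.31, 14.36, 14.16 and 13.9 in the 4 Double libraries in order. The gap of Double 4 was then a smaller part of the range.

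In Nkx against WT, most members lay on opposite sides of 0 at the 2 ages: 72 of 75 were below 0 at E18.5 and 73 of 75 above 0 at 6 months. Of these, 3 large-subunit members were flagged. Rpl36 was at 0.46 at 6 months and -1 at E18.5, Rpl35 at 0.56 and -0.62, and Rpl27 at 0.54 and -0.70. The difference between the ages was not tested, because the ages were normalized separately, and none of these values passed limma's adjusted threshold.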

How the results depend on the processing

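At E18.5 the count of members called was 0 in each alternative for NANCI against WT and Double against Nkx. When libraries were left out in turn it ran from 0 to 14 in Nkx against WT and from 0 to 5 in Double against WT, both highs without WT 3. In 6-month Nkx against WT it was 4 in a fit of the 2 groups alone (share of all genes not given) and 0 in the others. In 6-month Double against WT (4 called) it was 2 without the mean-variance trend, 1 with a sex covariate, and 2 to 7 with a library left out. In Double against Nkx (2 called) it was 1 without the trend, 1 when centred on other genes of the members' range, 1 with a depth covariate, 1 with a sex covariate, 0 when centred on the members, and 0 to 7 with a library left out. A replicate block over all groups of an age gave 1 there, 6 in Double against WT and 0 elsewhere. The numbers pair the libraries by correlation only in E18.5 Double against Nkx (3 of 3 pairs over 0.1), where a block in a fit of the 2 groups gave 0 as well; over all groups 6 of 18 same-number pairs were over 0.1 at E18.5 and 1 of 9 at 6 months. Without WT 3 and with copies summed, E18.5 counts were 14 in Nkx against WT and 4 in Double against WT. Apart from the shares printed in the Results, the share of all genes called in these alternatives is not given here. Rpl29 in E18.5 Double against WT was -0.46, and with a library left out it ran from -0.84 (without WT 3) to 0.06 (without Double 1). The causes were not tested. Depth is unknown, so what it limits could not be set. The centring on members, the sums with copies and the fit of a block on 2 groups were chosen after the data were seen. So was the separate account of the E18.5 results without WT 3.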
